A study of Mus musculus with 6 samples.

Results

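Collagens are trimers of chains that share long runs of glycine repeats, and they form most of the protein of the extracellular matrix. Fibrillar collagens build fibrils, fibril-associated collagens coat them, network collagens make up basement membranes, and multiplexins link basement membranes to the tissue beneath. In the endoplasmic reticulum the chains are hydroxylated on proline and lysine and folded with the help of a chaperone. Outside the cell they are cross-linked by lysyl oxidases. In the fetal testis, Sertoli cells and peritubular cells lay down a basement membrane around the cords, and SOX9, the factor that drives Sertoli cell differentiation, is also the activator of the collagen genes of cartilage.

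The genes described here are the collagen chains, 10 enzymes and a chaperone that process them, and a small set of cartilage matrix genes. They were chosen by symbol: every gene named Col, number, a, number, plus 15 further symbols. Of the 11736 genes analysed, 46 were members, of which 32 were collagen chains, 11 were enzymes or the chaperone and 3 were cartilage matrix genes. The remaining symbol, Matn4, and some chains, among them Col9a1, Col4a3 and Col10a1, are not analysed here.

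RNA of gonadal somatic cells from XY C57BL/6 mouse embryos at day E11.5 was compared between 3 libraries labelled Cdyl-Het, with a heterozygous deficiency of Cdyl, and 3 labelled Cdyl-KO, with a homozygous one. The libraries are called Het1 to Het3 and KO1 to KO3 where single ones are named. Cdyl encodes a chromodomain protein of transcriptional repressor complexes. Every embryo also carried Nr5a1-hCD271, through which cells bearing hCD271 at the surface were collected with magnetic beads. No group without a Cdyl deficiency was measured. Whether the samples came from separate embryos, pools or litters is a point on which the sources used here are silent. The p-values therefore weigh the difference between groups only against the spread among these samples within a group, and that spread may be technical. Levels are given as scaled RPKM, that is, reads per kilobase of exon relative to the reads of the whole library. A scaling factor for each library was then applied. The deposited values carried no unit and were taken as RPKM, so comparisons of level between genes rest on that reading. Changes are Cdyl-KO minus Cdyl-Het on log2(scaled RPKM + 1), a scale that shrinks the change of genes at low levels. A gene is called changed at a limma p below 0.05 after Benjamini-Hochberg adjustment over all 11736 genes.

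Across all genes, 548 were called higher (4.67%) and 332 lower (2.83%) in Cdyl-KO. The steps between low values implied 34.6 to 45.2 M reads per library, and the weakest member value stood for about 88 reads. Cdyl itself lay at 7.77, 8.06 and 8.22 scaled RPKM in Cdyl-Het, against 6.77, 6.93 and 7.07 in Cdyl-KO, a difference that did not pass the threshold (limma adjusted p = 0.0702). The sources used here do not describe the mutation, so this value does not check the labels. Of 5 fixed markers of gonadal somatic cells, Nr5a1, Wt1 and Gata4 were at 66.3 to 94.0 scaled RPKM in every library and were not called. The other markers rose in Cdyl-KO: Lhx9 was at 20.3 to 25.7 in Cdyl-Het, against 31.3 to 34.2 (log2 change 0.46, limma adjusted p = 0.0273), and Emx2 at 47.3 to 58.0, against 74.6 to 82.0 (0.57, adjusted p = 0.0129). Of 9 fixed chondrocyte markers, 6 macrophage markers and 6 germ cell markers, 0, 0 and 1 were among the genes analysed.

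The start regions of several genes are shown because the collagen genes divided into those that fell and those that did not. The runs are the 250 bases before the RefSeq start (GRCm38.p6), 5′ to 3′ on the strand of the gene. RefSeq starts can differ from those of GENCODE M21, the source of the gene positions given below. By GENCODE M21, Col27a1 starts at 63214004 and Col1a2 at 4504814, so their windows lie inside these genes. Col9a2 (121039385) and Col18a1 (77166548) start there within their windows, Col18a1 within its upstream one. Capitals mark exact matches on either strand to 4 motifs. The GC box was searched as GGGCGG. The CCAAT box was searched by the letters of its name. The usual TATA element was searched as TATAAA. The core of sites bound by SOX factors was searched as AACAAT. The first 4 belong to genes that fell, Col18a1 with 2 separate starts, and the last 2 to genes that were not called.
Col27a1 (chr4:63215162-63215411, plus strand): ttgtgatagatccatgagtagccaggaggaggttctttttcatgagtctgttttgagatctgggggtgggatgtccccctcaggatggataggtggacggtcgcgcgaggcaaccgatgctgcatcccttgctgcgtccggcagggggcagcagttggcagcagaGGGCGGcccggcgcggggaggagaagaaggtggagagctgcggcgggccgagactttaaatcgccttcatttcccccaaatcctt
Col9a2 (chr4:121039316-121039565, plus strand): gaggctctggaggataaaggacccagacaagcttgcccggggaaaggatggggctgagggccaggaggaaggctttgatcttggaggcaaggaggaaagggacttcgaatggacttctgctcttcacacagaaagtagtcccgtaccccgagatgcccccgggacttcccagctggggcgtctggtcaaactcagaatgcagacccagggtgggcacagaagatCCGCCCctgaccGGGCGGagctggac
Col18a1, upstream start (chr10:77166531-77166780, minus strand): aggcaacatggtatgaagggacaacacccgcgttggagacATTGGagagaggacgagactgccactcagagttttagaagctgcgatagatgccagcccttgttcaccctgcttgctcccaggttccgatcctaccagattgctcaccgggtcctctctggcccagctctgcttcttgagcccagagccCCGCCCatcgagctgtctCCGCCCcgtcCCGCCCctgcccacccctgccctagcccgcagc
Col18a1, downstream start (chr10:77113706-77113955, minus strand): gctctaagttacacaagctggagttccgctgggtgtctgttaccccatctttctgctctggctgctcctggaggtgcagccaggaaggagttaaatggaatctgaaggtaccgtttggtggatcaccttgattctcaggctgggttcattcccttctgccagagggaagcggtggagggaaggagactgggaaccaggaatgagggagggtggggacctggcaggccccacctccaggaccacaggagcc
Col1a2 (chr6:4505368-4505617, plus strand): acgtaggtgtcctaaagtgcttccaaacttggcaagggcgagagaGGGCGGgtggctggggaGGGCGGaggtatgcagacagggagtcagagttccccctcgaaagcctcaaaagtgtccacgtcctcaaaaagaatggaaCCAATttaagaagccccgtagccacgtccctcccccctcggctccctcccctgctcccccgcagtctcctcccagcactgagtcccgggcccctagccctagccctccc
Col3a1 (chr1:45311288-45311537, plus strand): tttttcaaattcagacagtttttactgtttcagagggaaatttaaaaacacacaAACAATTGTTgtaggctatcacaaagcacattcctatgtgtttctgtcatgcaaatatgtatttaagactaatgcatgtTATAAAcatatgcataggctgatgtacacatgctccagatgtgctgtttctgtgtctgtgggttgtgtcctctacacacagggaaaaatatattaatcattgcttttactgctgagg

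In these windows the AACAAT core was found for Col3a1, at a pair of overlapping sites on opposite strands, and for none of the other members with a sequence, 34 windows of 32 genes in all. Over all 32851 RefSeq windows of the same length, 9.42% held it. GGGCGG was found in 3 of the 7 windows (6 genes) called lower and 21 of the 26 windows of genes not called, against 32.7% of all windows. The median percentage of G and C was 57.6, 63.2 and 52.4 in the same order. The motif counts were not adjusted for it. CCAAT was found in 1 of the 7 and 12 of the 26, against 33.8% of all. TATAAA was found in 0 of the 7 and 3 of the 26, against 12.4% of all. Matches were counted at any distance, and these began 117 (Col3a1), 143 (Col11a2) and 237 (Col13a1) bases before the start. Whether they work as TATA elements was not tested. The 1 window of a gene called higher, Plod1, held GGGCGG and TATAAA and neither of the other motifs. The windows are short, the letters are matched exactly, and the called genes Col9a3, Col2a1, Col14a1, Plod2 and Col22a1 are named only. The deposited values are per gene, so reads from the 2 starts of Col18a1 cannot be told apart.

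Of the 46 members, 10 fell (21.7%, where 2.83% of all genes did), 2 rose (4.35%, where 4.67% of all did) and 34 were not called. The genes that fell were Col9a3, Col27a1, Col2a1, Col18a1, Col9a2, Col14a1, Hapln1, Col15a1, Col6a3 and Plod2, and those that rose were Col22a1 and Plod1. The Cdyl-KO values lay wholly below the Cdyl-Het values in 15 members (32.6%, against 14.5% of all genes) and wholly above them in 9 (19.6%, against 17.1%). The median log2 change was -0.07 over the members, -0.14 over the 32 chains and 0.00 over all genes. Of 9 members with a mean of at least 20 scaled RPKM, 1 fell (Col18a1), and of the 37 below that level 9 fell and 2 rose. Every member had a mean of at least 1 RPKM in both groups, so none was listed through 1 group alone. The number of members called lower was 6 without Het2, 5 without Het3 and 6 without KO1. Over all genes, the number called lower went from 332 to 81, 56 and 97 in the same fits. The number of members called higher was 1 without Het1 or Het3 and 0 without any 1 of the other 4 libraries. Leaving out a library gave 197 to 387 of all genes called higher, against 548 with every library.

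**Figure D1:**
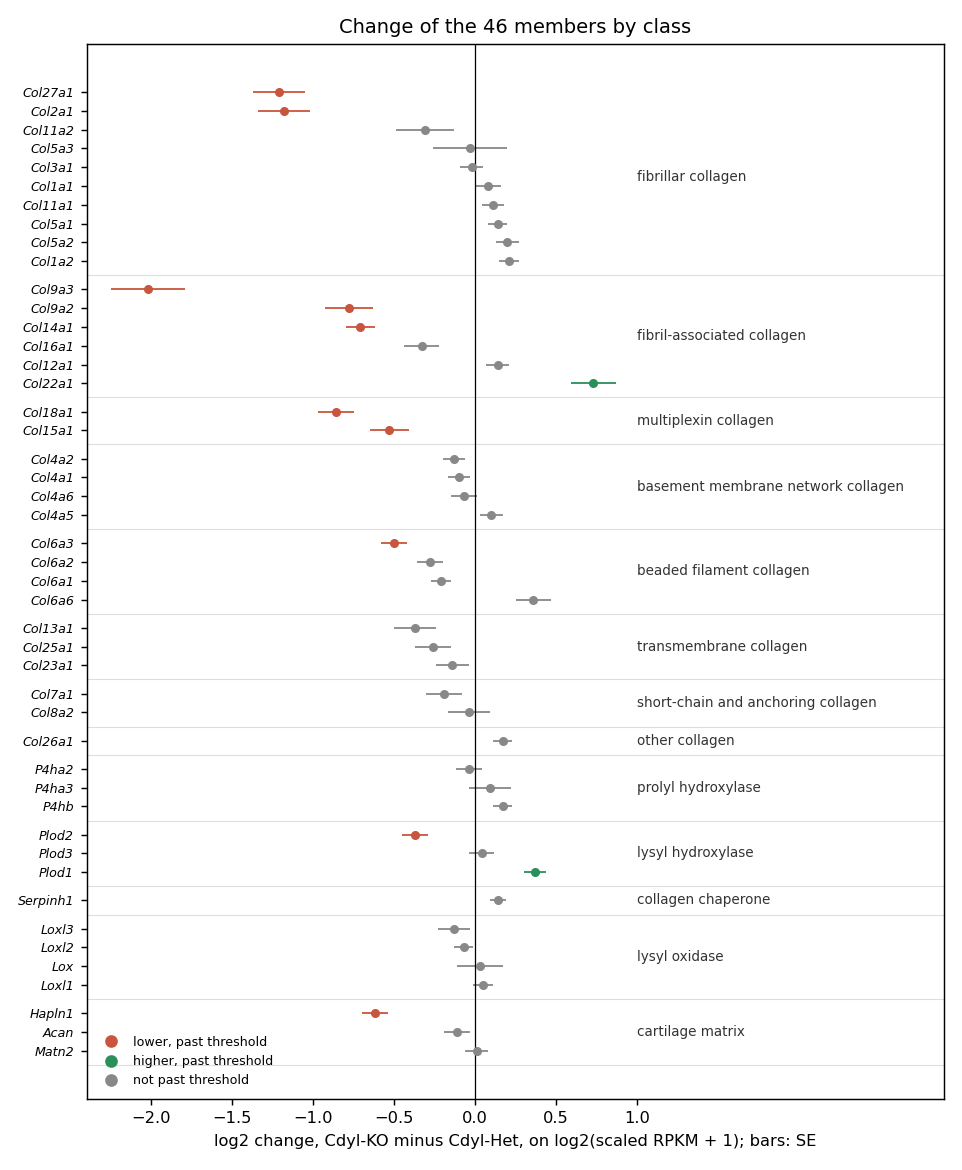
Log2 change (Cdyl-KO minus Cdyl-Het, horizontal axis) with its SE for each of the 46 members, grouped by class of matrix gene. Col9a3 lies farthest to the left at -2.02 and Col22a1 farthest to the right at 0.73, while chains of collagens I, III, IV and V lie between -0.13 and 0.21.

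Marker genes of other cells moved in the same libraries. For comparison, 2.83% of all genes were called lower and 4.67% higher, and 2977 of 11736 had an unadjusted limma p under 0.05. The summed level of the endothelial markers, 8 of 10 of which were analysed, was 33.1 to 36.3 scaled RPKM in Cdyl-Het, against 21.7 to 23.9 in Cdyl-KO, and 4 of the 8 fell (Cdh5, Kdr, Tek and Egfl7). Of 8 markers of pericytes and smooth muscle, Myh11 and Mcam fell and 0 rose, and the sums were 40.4 to 45 and 36.0 to 43.3. This list was mixed, with log2 changes below 0 in 5 markers and above 0 in 3 (Notch3, Acta2 and Tagln). Of 9 markers of interstitial progenitors and mesenchyme, 0 were called, with sums of 127 to 133 and 134 to 143 (0 at an adjusted p under 0.05 by limma, 6 at an unadjusted p under 0.05). The coelomic epithelium markers, 5 of 7 of which were analysed, had sums of 120 to 140 and 185 to 196, and 4 rose. Of the mesonephric epithelium markers, 6 of 7 of which were analysed, Pax8 and Emx2os rose (log2 changes 0.40 and 0.37, limma adjusted p = 0.0227 and 0.0271), and the sums were 15.9 to 19.9 and 19.7 to 21.3. Of the blood markers, 5 of 7 of which were analysed, 0 were called by limma (1 at an unadjusted p under 0.05), and their sums ran from 42.2 to 223 within Cdyl-Het and from 46.2 to 132 within Cdyl-KO. Their part in the collagen results was not tested. In bulk RNA, fewer cells of a type and less RNA per cell cannot be told apart.

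The 3 members with the lowest log2 changes, Col9a3, Col27a1 and Col2a1, are fibrillar or fibril-associated collagens known from cartilage. Col9a3, a chain of the fibril-associated collagen IX that is also expressed in early Sertoli cells (chromosome 2, 180597790 to 180622189, mm10), was at 5.38, 8.31 and 8.74 scaled RPKM in Cdyl-Het, against 0.548, 1.09 and 1.7 in Cdyl-KO. The highest Cdyl-KO value was below a level of 2 and the lowest Cdyl-Het value above 5, so the groups were far apart. Its mean went from 7.48 ± 1.83 to 1.11 ± 0.575 (SD, n = 3 per group), a ratio of 0.148, with a log2 change of -2.02 (SE 0.23, limma adjusted p = 0.00682). Its exons share 234 bases with those of Tcfl5 on the opposite strand, and the sources used here do not give the strand setting of the counting.

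Col9a2, another chain of collagen IX (chromosome 4, 121039385 to 121055322), was at 9.42, 13.4 and 11.7 scaled RPKM in Cdyl-Het, against 5.25, 6.14 and 7.48 in Cdyl-KO. The groups did not overlap, but the drop was smaller than that of its partner (log2 change -0.78, SE 0.15, limma adjusted p = 0.0249). The ratio of the Col9a2 to the Col9a3 level was 1.75, 1.61 and 1.33 in Cdyl-Het, against 9.59, 5.65 and 4.41 in Cdyl-KO. The 2 chains were thus of similar level in Cdyl-Het and unequal in Cdyl-KO, with no overlap of the ratios. The ratios between chains given here are a description, and their differences between the groups were not tested. Col9a2 was not called without Het2 (adjusted p = 0.0766), Het3 (0.0947), KO1 (0.0704) or KO2 (0.0700), within a range of 0.0133 to 0.0947 over all alternatives.

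Col2a1, the fibrillar collagen that makes up cartilage fibrils (chromosome 15, 97975602 to 98004695), was at 3.62, 4.20 and 4.53 scaled RPKM in Cdyl-Het, against 0.773, 1.75 and 1.35 in Cdyl-KO. All Cdyl-KO values were less than the lowest Cdyl-Het value, and the mean went from 4.12 ± 0.461 to 1.29 ± 0.490 (SD, n = 3 per group; log2 change -1.18, SE 0.16, limma adjusted p = 0.0104). It was not called without Het3 (adjusted p = 0.0544, 0.00811 to 0.0544 over all alternatives). Its partners in the mixed fibrils of cartilage were not called: Col11a1 was at 2.77, 3.09 and 2.73 in Cdyl-Het, against 3.12, 2.99 and 3.39 in Cdyl-KO, and Col11a2 at 1.77, 1.42 and 2.33 against 0.829, 1.57 and 1.49. Their limma tests did not pass (log2 changes 0.11 and -0.31, limma adjusted p = 0.407 and 0.322), and both had groups that overlapped. The level of Col11a1 relative to Col2a1 was 0.603 to 0.766 in Cdyl-Het, against 1.71 to 4.04 in Cdyl-KO.

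Col27a1, a fibrillar collagen of cartilage with a long interrupted helix (chromosome 4, 63214004 to 63334991), was at 6.15, 8.68 and 8.57 scaled RPKM in Cdyl-Het, against 2.11, 2.89 and 3.40 in Cdyl-KO. The groups were separated by a gap wider than the range of the Cdyl-KO values (log2 change -1.21, SE 0.16, limma adjusted p = 0.00961). Together with Col9a3 and Col2a1 it was one of 3 members that fell by at least 1 on the log2 scale, as 0.256% of all genes did. Col14a1, a fibril-associated collagen that limits fibril growth (chromosome 15, 55307750 to 55520803), was at 4.27, 4.44 and 5.16 in Cdyl-Het, against 2.16, 2.44 and 2.74 in Cdyl-KO. Its level was close to even within each group and lower in every Cdyl-KO library (log2 change -0.71, SE 0.09, limma adjusted p = 0.00919).

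Col22a1, a fibril-associated collagen of tissue junctions (chromosome 15, 71795795 to 72034227), went the other way. It was at 2.07, 1.53 and 2.52 scaled RPKM in Cdyl-Het, against 3.59, 4.72 and 3.78 in Cdyl-KO, so all Cdyl-KO values were above all Cdyl-Het values (log2 change 0.73, SE 0.14, limma adjusted p = 0.0260). It was not called when Het1, Het2, KO1, KO2 or KO3 was left out (adjusted p = 0.0595, 0.0666, 0.0581, 0.0710 and 0.0619, with 0.0241 to 0.0838 over all alternatives). Of the 6 fibril-associated chains, 3 fell (Col9a2, Col9a3 and Col14a1) and 1 rose. Col16a1 and Col12a1 were not called: Col16a1 had a log2 change of -0.33 with an adjusted p of 0.121, and Col12a1 was at 6.76 to 7.94 in Cdyl-Het, against 7.72 to 8.63 in Cdyl-KO.

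**Figure D2:**
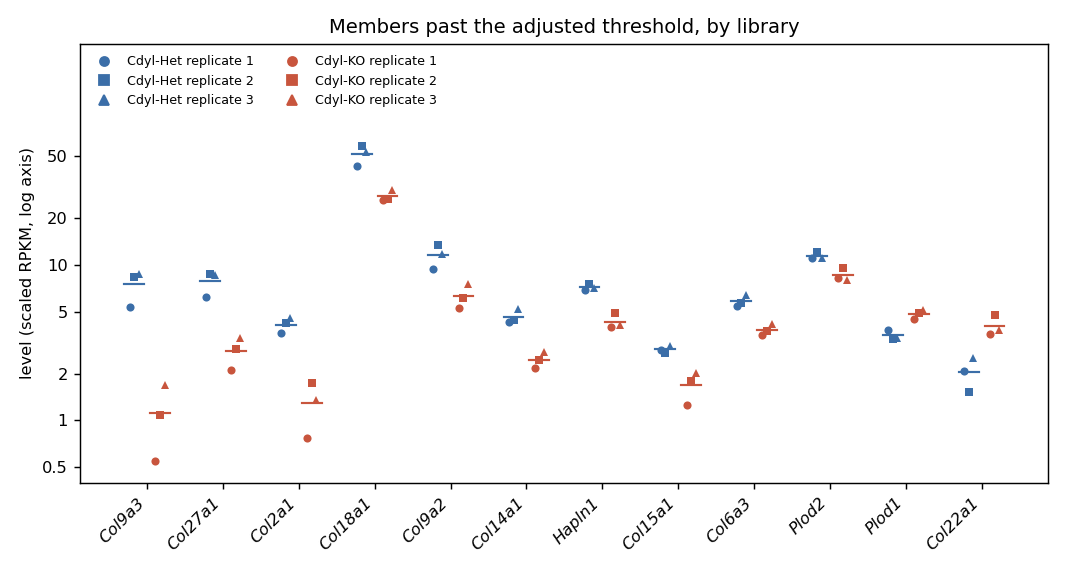
Level in each library (scaled RPKM, log axis) of the 12 members past the adjusted threshold, ordered by log2 change, with a symbol for each replicate and a line at the group mean. In the 10 genes on the left all Cdyl-KO points lie below all Cdyl-Het points, and in Plod1 and Col22a1 they lie above.

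The cartilage matrix genes outside the collagens were divided. Hapln1, the link protein that fastens aggrecan to hyaluronan (chromosome 13, 89539796 to 89611652), was at 6.86, 7.49 and 7.05 scaled RPKM in Cdyl-Het, against 3.95, 4.87 and 4.11 in Cdyl-KO. The replicates were tight and the groups well apart (log2 change -0.62, SE 0.08, limma adjusted p = 0.00849). Acan, which encodes aggrecan itself, was at 2.27, 2.14 and 2.40 against 2.03, 2.02 and 2.06. Its groups did not overlap but the difference was small and not called (log2 change -0.11, SE 0.08, adjusted p = 0.435). Matn2, a matrilin, was at 6.62 to 7.45 in Cdyl-Het, against 6.47 to 7.51 in Cdyl-KO.

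The 3 SOX factors that act together on cartilage genes were measured beside them. Sox9 was at 43.3, 57.1 and 54.6 scaled RPKM in Cdyl-Het, against 24.4, 20.2 and 30.8 in Cdyl-KO and fell (log2 change -1.02, limma adjusted p = 0.0153). Sox6 also fell (-0.40, adjusted p = 0.0103), and Sox5 was not called (-0.21, adjusted p = 0.0875). A link between these factors and the collagen genes was not tested.

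Both multiplexins fell. Col18a1, the basement membrane collagen whose end fragment is endostatin (chromosome 10, 77052178 to 77166548), was the most abundant collagen chain in 2 of the 3 Cdyl-Het libraries, at 43.2, 57.8 and 52.4 scaled RPKM, and was at 26.1, 26.5 and 30.3 in Cdyl-KO. The mean went from 51.2 ± 7.4 to 27.6 ± 2.29 (SD, n = 3 per group; ratio 0.540, log2 change -0.86, SE 0.11, limma adjusted p = 0.00890). In Cdyl-KO its level lay under those of Col3a1 and Col4a1 in every library. Col15a1, its relative in the zone below basement membranes (chromosome 4, 47208161 to 47313167), was at 2.85, 2.71 and 3.0 in Cdyl-Het, against 1.25, 1.79 and 2.01 in Cdyl-KO (log2 change -0.53, SE 0.12, limma adjusted p = 0.0422). The level of Col15a1 was thus far lower than that of Col18a1 in both groups, and its call was lost when Het1, Het2, Het3, KO1 or KO2 was left out, with adjusted p of 0.0947, 0.0982, 0.136, 0.0725 and 0.0825 in that order (0.0192 to 0.136 over all alternatives). Both genes are also transcribed in vessels, of whose 8 analysed markers 4 fell, and the part of vessels in these values was not tested.

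The main chains of the basement membrane network were not called. Col4a1 was at 42.9, 51.1 and 44.8 scaled RPKM in Cdyl-Het, against 43.0, 43.5 and 42.7 in Cdyl-KO, and Col4a2 at 28.8, 34.5 and 30.6 against 28.8, 28.7 and 27.7. The groups overlapped in both (log2 changes -0.10 and -0.13, limma adjusted p = 0.430 and 0.305). These genes lie head to head on chromosome 8, with 22 bases of exon in common, and their levels kept a nearly fixed proportion: Col4a1 relative to Col4a2 was 1.47 to 1.49 in Cdyl-Het, against 1.49 to 1.54 in Cdyl-KO. Without scaling, Col4a2 was called lower (log2 change -0.27 with an adjusted p of 0.0490, in a range of 0.0490 to 0.564 among its alternatives). Col4a5 was at 11.2 to 13.3 and Col4a6, its neighbour on chromosome X, at 1.83 to 2.18 over all 6 libraries.

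**Figure D3:**
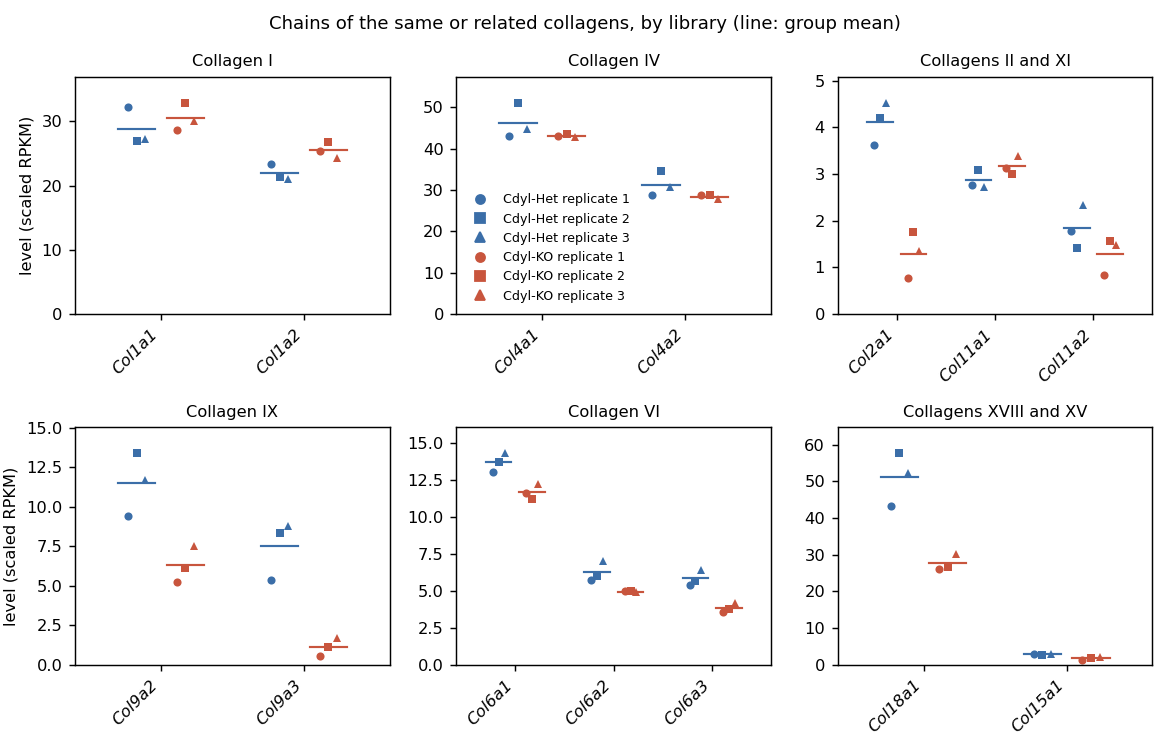
Level in each library (scaled RPKM) of chains that share a trimer, a fibril or a family, with a line at each group mean. Col9a3, Col2a1 and Col18a1 differ clearly between the groups, while Col1a1, Col4a1, Col4a2 and Col11a1 overlap.

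The beaded filament collagen VI is built from the chains of Col6a1, Col6a2 and Col6a3, of which Col6a3 fell. Col6a3 (chromosome 1, 90765923 to 90843971) was at 5.40, 5.65 and 6.40 scaled RPKM in Cdyl-Het, against 3.56, 3.73 and 4.14 in Cdyl-KO and was called (log2 change -0.50, SE 0.08, limma adjusted p = 0.0145). Col6a1 was at 13.0, 13.7 and 14.3 against 11.6, 11.2 and 12.2, and Col6a2 at 5.72, 5.98 and 7.02 against 4.97, 4.95 and 4.88. Their groups did not overlap either, but neither passed the threshold (log2 changes -0.21 and -0.28, both with an adjusted p of 0.0683). Col6a1 was called without scaling, with upper quartile scaling and among genes of at least 5 RPKM (adjusted p = 0.0132, 0.0478 and 0.0346, 0.0132 to 0.173 over all alternatives), and Col6a2 without scaling (0.0233, 0.0233 to 0.156 over all). Col6a3 was not called without Het2 (0.0541), Het3 (0.0544) or KO1 (0.0532), within 0.00841 to 0.0544 over all. Col6a6, a relative of Col6a3, was at 3.50, 2.71 and 3.67 in Cdyl-Het, against 4.16, 4.20 and 5.15 in Cdyl-KO and was not called (log2 change 0.36, adjusted p = 0.0997).

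The abundant fibrillar collagens of mesenchyme were not called. Col3a1 was at 51.7, 49.2 and 44.3 scaled RPKM in Cdyl-Het, against 47.5, 48.6 and 46.4 in Cdyl-KO, and had overlapping groups (log2 change -0.02, limma adjusted p = 0.859). Col1a1 was at 32.2, 26.9 and 27.3 against 28.7, 32.9 and 30.0, also overlapping (log2 change 0.08, adjusted p = 0.579). Its partner Col1a2, with 23.3, 21.4 and 21.0 against 25.3, 26.8 and 24.3, had Cdyl-KO values above all Cdyl-Het values but did not pass (log2 change 0.21, adjusted p = 0.0898). The collagen V chains that start fibrils with collagen I, Col5a1 and Col5a2, had log2 changes of 0.14 and 0.20 (adjusted p = 0.181 and 0.114). These small differences depended on scaling: on the deposited values the changes of Col1a1, Col1a2, Col5a1 and Col5a2 were -0.06, 0.07, 0.00 and 0.07, where the median of all genes was -0.12. The summed level of these 5 chains was 119.3 to 137.4 in Cdyl-Het, against 132.2 to 140.0 in Cdyl-KO, while that of all 32 chains was 364.8 to 392.0 against 319.7 to 334.1. The 8 chains called lower, a set that their calls define, made up 80.28 to 105.2 of that sum in Cdyl-Het, against 41.75 to 53.06 in Cdyl-KO.

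Among the transmembrane collagens, Col13a1 was at 3.01, 2.88 and 3.58 scaled RPKM in Cdyl-Het, against 1.72, 2.65 and 2.34 in Cdyl-KO, and Col25a1 at 1.51, 1.92 and 1.68 against 1.09, 1.40 and 1.30. Both had groups that did not overlap and neither was called (log2 changes -0.37 and -0.26, limma adjusted p = 0.124 and 0.201). Without scaling, Col13a1 and Col16a1 were called lower (adjusted p = 0.0496 and 0.0361, with 0.0496 to 0.303 and 0.0361 to 0.296 over all alternatives). The 15 members not given a change of their own here, among them Col7a1 of anchoring fibrils, Col26a1 and the lysyl oxidases, had means of 1.27 to 12.5 scaled RPKM and log2 changes of -0.19 to 0.17, and the lowest adjusted p among them was 0.141.

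Of the 11 enzymes and chaperone genes, Plod2 fell, Plod1 rose and 9 were not called. The levels of Serpinh1 and P4hb were above that of every collagen chain in every library. Serpinh1, the collagen chaperone, was at 163.3, 165.3 and 165.2 scaled RPKM in Cdyl-Het, against 189.4, 177.3 and 179.0 in Cdyl-KO. P4hb, protein disulfide isomerase and a subunit of the collagen prolyl hydroxylases, was at 125.4, 122.3 and 111.5 against 134.6, 130.1 and 138.2. In both genes the Cdyl-KO values were all above the Cdyl-Het values, and neither passed (log2 changes 0.14 and 0.17, limma adjusted p = 0.149 and 0.158). On the deposited values both changes were near 0 (0.00 and 0.02). The catalytic subunits P4ha2 and P4ha3 were at 1.83 to 2.98 over all libraries. The cross-linking enzymes Lox, Loxl1, Loxl2 and Loxl3 were at 1.26 to 11.3 with overlapping groups in each.

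The lysyl hydroxylases, which prepare collagen for cross-linking, were divided, with Plod2 lower, Plod1 higher and Plod3 not called. Plod2, which acts on the ends of the chains (chromosome 9, 92542223 to 92608428), was at 11.0, 12.0 and 11.0 scaled RPKM in Cdyl-Het, against 8.19, 9.50 and 7.93 in Cdyl-KO and fell (log2 change -0.37, SE 0.08, limma adjusted p = 0.0320). Plod1, which acts within the helix (chromosome 4, 147909753 to 147936767), was at 3.83, 3.35 and 3.37 against 4.49, 4.90 and 5.14 and rose (log2 change 0.37, SE 0.07, adjusted p = 0.0289). Plod3, which also adds sugars to hydroxylysine, was at 8.0 to 9.52 and 8.37 to 9.74 and was not called (log2 change 0.04, adjusted p = 0.784). Plod2 was called without KO2 but not without Het1, Het2, Het3, KO1 or KO3 (adjusted p = 0.0563, 0.0975, 0.0898, 0.1 and 0.0857, with 0.0149 to 0.1 over all alternatives). Plod1 was called without Het1 but not without Het2, Het3, KO1, KO2, KO3 or the scaling (adjusted p = 0.0916, 0.101, 0.0557, 0.0824, 0.0841 and 0.0521, with 0.0286 to 0.101 over all). Exons of Plod2 overlap those of Gm38391 on the opposite strand.

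**Figure D4:**
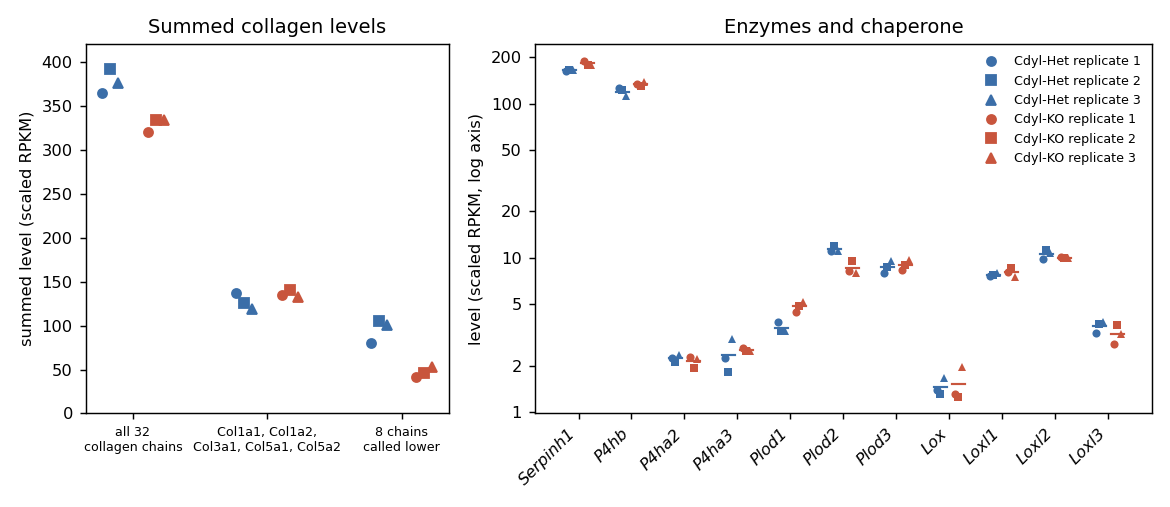
Left, summed level (scaled RPKM) per library of all 32 chains, of 5 abundant fibrillar chains and of the 8 chains called lower, the last being a set chosen by its fall. Right, level of each enzyme and of the chaperone on a log axis, where Plod1 and Plod2 are the genes past the threshold.

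Other genes of the collagen pathway were counted from lists that hold no member. For comparison, limma gave an unadjusted p under 0.05 for 2977 of all 11736 genes. Of 12 analysed genes of collagen folding and modification, such as P4ha1, Crtap and Ppib, 0 were called by limma (0 at an unadjusted p under 0.05 too), with log2 changes of -0.17 to 0.16. Of 8 genes of procollagen export and trimming, 0 were called (4 at an unadjusted p under 0.05). The propeptide proteases Adamts2 and Adamts14 were the lowest of these, at 1.89, 2.65 and 2.84 scaled RPKM against 1.32, 1.69 and 1.40 and at 1.94, 1.79 and 2.65 against 1.13, 1.42 and 1.32 (log2 changes -0.48 and -0.44, limma adjusted p = 0.0726 and 0.0851).

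Of 9 genes of collagen breakdown, 1 fell: Mmp2, a gelatinase, was at 40.1, 47.6 and 44.8 scaled RPKM in Cdyl-Het, against 31.7, 32.3 and 30.3 in Cdyl-KO (log2 change -0.48, SE 0.07, limma adjusted p = 0.0132). Mmp14, the membrane protease that activates it, was not called (0.14, adjusted p = 0.138). Of 4 collagen receptors, 0 were called (3 at an unadjusted p under 0.05), and Itgb1, the shared integrin chain, was at 59.8 to 65.0 in Cdyl-Het, against 54.3 to 54.8 in Cdyl-KO (log2 change -0.18, adjusted p = 0.0826). Of 10 small proteoglycans and fibril partners, Sparc, a collagen-binding glycoprotein, and Fbn2, a fibrillin, fell. Sparc was at 98.1, 123.5 and 115.6 against 89.0, 82.6 and 85.8 (log2 change -0.38, adjusted p = 0.0482), and Fbn2 had a mean of 24.5 ± 0.259 against 20.5 ± 0.407 (SD, n = 3 per group; log2 change -0.25, limma, adjusted p = 0.0228). Beside these counts, 7.5% of all genes were called in either direction, and 2977 of 11736 had an unadjusted limma p under 0.05.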

How the data were processed

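RNA was sequenced from 6 libraries made, per the labels' protocols, with a stranded total RNA kit for small inputs. The submitters' processing notes name mm10, STAR, Subread and featureCounts 1.6.4 without their roles. The sources used here give no annotation, strand setting or gene filter. The authors deposited one value per gene and library with no unit, taken here as RPKM because the values are not whole and their totals differ between libraries. The higher of a gene's group means was never under 1.005.

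Members, lists and motifs were chosen with earlier results of these data known. Text values follow a rule: members past the threshold, the 5 most abundant and partner chains, with others by range. Further members, such as Col13a1, Col25a1, Col16a1, Col6a6 and Acan, and single genes of the pathway lists were named after their values were seen. Values were divided by a trimmed mean of log ratios to the first library (0.3 of ratios and 0.05 of levels trimmed at each end). Log2 of scaled RPKM plus 1 was fitted in limma 3.58.1 (R 4.3.3) with a term for group and a trended spread, over all 11736 genes. The fit was tested on simulated data. Depth was estimated from steps between low values of single-exon genes (88.1% to 92.1% whole within 0.02), and whole multiples of these depths would match as well. Positions are from GENCODE M21 (GRCm38, the mm10 build), where all 46 symbols matched. Same-numbered replicates were not treated as pairs. Alternatives covered scaling, pseudocount, a level filter, the spread model, a replicate block and leaving out each library.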

Additional observations from a re-analysis of the deposited data

How the results depend on the processing

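All 10 members called lower stayed below 0 and both called higher stayed above 0 in every alternative that tested them. Of the 10, 5 (Col9a3, Col27a1, Col18a1, Col14a1 and Hapln1) were past the threshold in each of these. Leaving out a library gave 5 to 9 members and 4 to 8 chains lower, and 0 to 1 members and 0 to 1 chains higher. In the same fits 56 to 260 of all genes were lower and 197 to 387 higher, against 332 and 548 with every library. Without scaling, 13 chains and 15 members were lower and 1 member was higher, with a median change of all genes of -0.12 and 305 genes higher against 1558 lower. Among genes with a mean of at least 5 RPKM, which hold 23 members and 15 chains, 6 members and 4 chains were lower and 0 members and 0 chains were higher, since fewer members were tested. Over all genes, the numbers did not pair the samples (correlations of deviations -0.05, -0.27 and -0.05 for replicates 1, 2 and 3). These correlations were not taken over the members alone. With the replicate block, 9 members and 7 chains were lower and 0 members and 0 chains were higher, and 337 genes in all were called against 880. Sign changes were seen in genes not called. Among those given a change in the report they were, without scaling, Col11a1 (0.00), Col1a1 (-0.06), Plod3 (-0.09) and Serpinh1 (0.00), and, leaving out a library, Col3a1 (-0.08 to 0.02) and Plod3 (-0.02 to 0.1, with -0.01 without Cdyl-KO replicate 3). Col4a5, Col5a3, Col8a2, P4ha3, Lox, Loxl1 and Matn2 also took both signs, between -0.26 and 0.22 over their alternatives. The cause was not tested. Weakly expressed members such as Col9a3 also vary in size with the pseudocount (-1.02 with 5, -2.74 with 0.1).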

Other observations

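Among the 10 members called lower, 1 library of each group was most often the lowest of its group. Cdyl-Het replicate 1 was lowest in 9 of the 10 and Cdyl-KO replicate 1 in 9 of the 10, against 29.9% and 34.0% of all genes. Cdyl-KO replicate 3 was the highest of its group in 7, for which no share over all genes was worked out. In Col9a3, Cdyl-KO replicate 1 was at 0.548 scaled RPKM and replicate 3 at 1.7. In Sox9, replicate 1 was the lowest of Cdyl-Het (43.3). Within Cdyl-KO, Sox9 was lowest in replicate 2 (20.2) and highest in replicate 3 (30.8). The 10 genes were chosen by their difference between groups, so these counts are a description with no test.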
